A study of Mus musculus with 14 samples.

Results

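The transcription factors that set the identity of helper T cells were followed through a mouse array experiment on Th1 and Th2 cells. They are 9 genes, Tbx21, Gata3, Maf, Runx3, Runx1, Eomes, Hlx, Gfi1 and Ikzf2, and all probe sets annotated to 1 of these genes and no other were read. That gave 23 of 45101 probe sets on the array, of which 22 were among the 29467 that passed a filter on low signal and were tested. Maf and Runx1 had 6 probe sets each, Ikzf2 had 3, Runx3 and Eomes had 2, and Tbx21, Gata3, Hlx and Gfi1 had 1. The probe set with the highest mean over the arrays stands for its gene below.

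T cells had been driven to Th1 or Th2 fate for 2 weeks, and the 14 arrays hold 7 conditions of each cell type, 1 array per condition. Trpm4, a channel that lets monovalent cations into the cell when calcium rises, was to be inhibited by Trpm4 siRNA or by a retrovirus with dominant negative (DN) Trpm4 after 12 h or 4 h of stimulation. The controls were Thy1 siRNA and a vector-only retrovirus after 12 h or 4 h, and 1 array per cell type came from cells with no treatment. The labels name no mouse strain, no stimulus and no time for the siRNA and untreated arrays, and they do not say whether arrays came from separate cultures. With 1 array per condition, matched pairs of arrays stand in for replicates, and p-values measure only the spread between these pairs, some of which share a treatment method.

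Helper T cells take on a fate through factors that switch on 1 cytokine programme and hold others down. T-bet, encoded by Tbx21, drives the Th1 programme with Runx3, while GATA3 drives the Th2 programme and c-Maf, encoded by Maf, acts on the Il4 promoter. Eomes is the T-box relative of T-bet best known from CD8 T cells and natural killer cells, and Hlx is a homeobox factor that acts with T-bet on Ifng. Runx1 is a relative of Runx3 known from thymic T cell development, Gfi1 is a zinc finger repressor that promotes Th2 cell growth, and Ikzf2 encodes Helios, a zinc finger factor of the Ikaros family used as a marker of regulatory T cells.

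The arrays were of 2 kinds. On 6 of them, both Th1 arrays at 4 h and all 4 Th2 retrovirus arrays, the log2 signal of the 3′ minus the 5′ control probe set was 5.22 to 5.72 for Gapdh and 3.93 to 4.78 for Actb, and on the other 8 arrays it was -0.25 to 0.04 for Gapdh and 0.05 to 0.47 for Actb. Cell type pairs at 12 h therefore set an unbiased Th1 array against a 3′-biased Th2 array, and so does 12 h against 4 h within Th1 cells, with 12 h unbiased. The arrays held a total signal of 7324678 to 10608719 with medians of 19.9 to 28.3, and signals were quantile normalised. All 6 T cell markers on the array exceeded the array median everywhere. Markers of CD8 T cells or natural killer (NK) cells, 6 of 7 on the array, summed to a normalised signal of 1708 to 7807 in Th1 arrays and 78.7 to 260.9 in Th2 arrays, highest in the untreated array of each cell type. Klrd1 and Klrk1 made up most of the Th1 sums. All 6 markers exceeded the array median in the untreated Th1 array, 4 in Th1 siRNA arrays and 2 or 3 in Th1 retrovirus arrays. Of markers of regulatory T cells and Th17 cells, 5 of 8 were on the array, and they were mixed. Foxp3, the defining gene of regulatory T cells, never exceeded the array median, while 3 of the 5, Il2ra, Ctla4 and Ikzf4, exceeded it everywhere. Trpm4 itself was lower with Trpm4 siRNA than with Thy1 siRNA by a log2 difference of -0.72 in Th1 and -0.63 in Th2 cells, and DN Trpm4 minus vector gave 2.59 at 12 h and 0.60 at 4 h in Th1 cells and -0.21 at 12 h and 0.09 at 4 h in Th2 cells.

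Gata3, Maf, Runx1 and Ikzf2 differed between Th1 and Th2 cells over the 7 pairs of the same treatment and time, and Tbx21 did not pass the test. Of the 22 member probe sets, 13 passed (adjusted p under 0.05 in limma), 3 higher and 10 lower in Th1 cells, which is 59.1%. The 3 include Ikzf2 1456956_at, which passed the filter on low signal only through its Th1 values. Over all 29467 probe sets 9.79% passed, 3.65% higher and 6.14% lower in Th1 cells. The members were chosen with earlier results of these data known, so their share is no independent test. By the leading probe set 4 of 9 genes passed, Ikzf2 higher and Gata3, Maf and Runx1 lower in Th1 cells, against 11.6% of all 13118 genes read on 1 probe set. For 9 of the 22 probe sets the 7 Th1 values and the 7 Th2 values did not overlap, against 1.96% of all probe sets. In these bulk samples fewer cells that express a gene and less RNA per cell cannot be told apart.

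**Figure D1:**
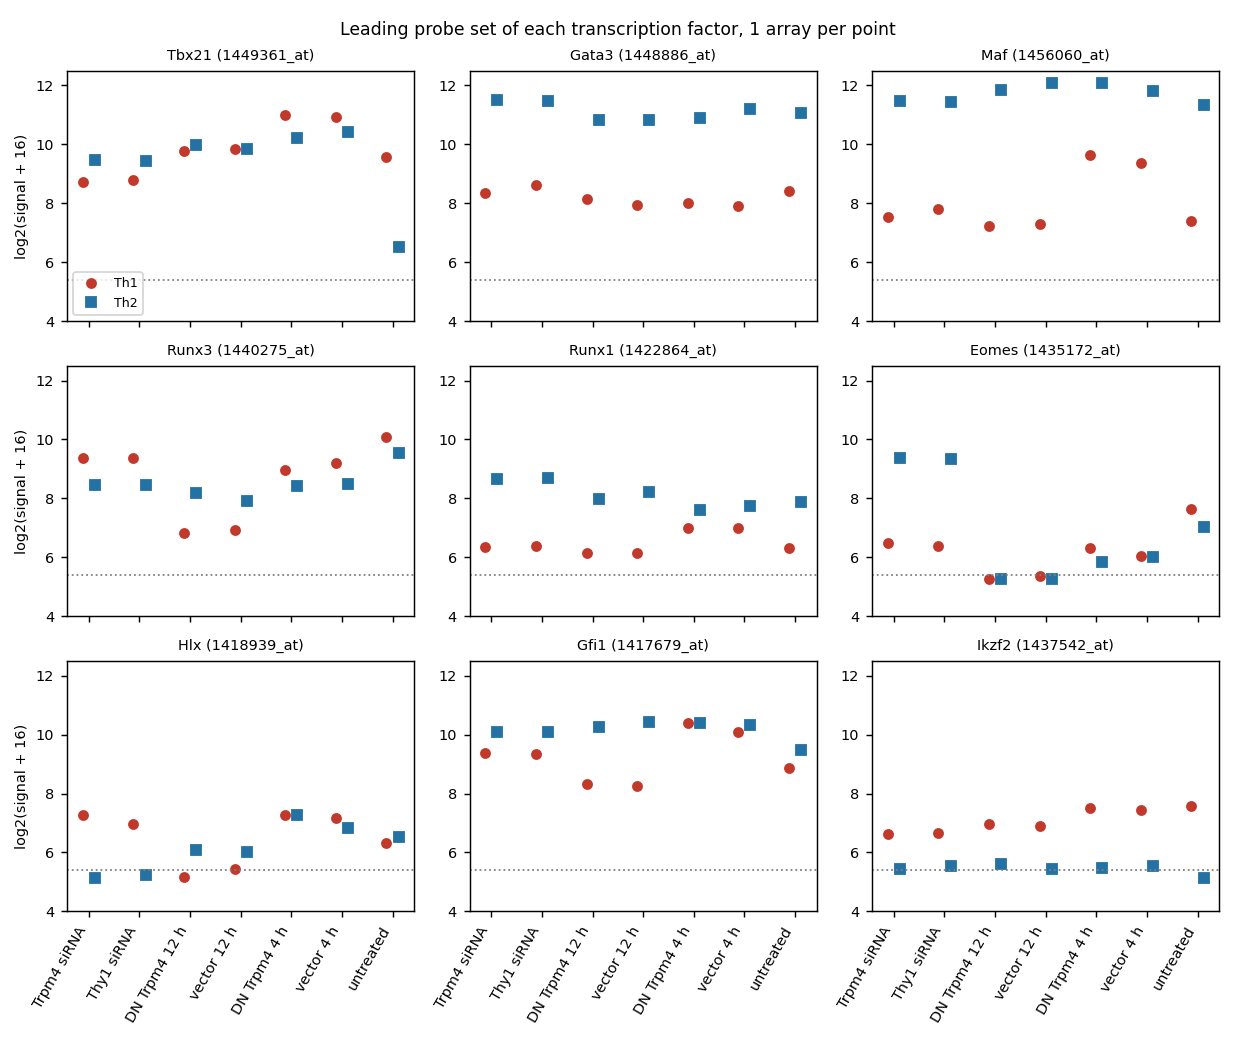
Signal of the leading probe set of each transcription factor on every array, as log2 of the quantile normalised signal plus 16, with Th1 arrays as circles left of Th2 arrays as squares. The dotted line is the median signal of an array (5.39). Gata3, Maf, Runx1 and Ikzf2 separate the cell types on all 7 pairs, whereas Tbx21 does so by a wide margin in the untreated pair and Eomes stands out in both Th2 siRNA arrays.

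Gata3 (probe set 1448886_at, chr2:9857078-9887953 in GRCm38.p6) was lower in Th1 cells in every pair, by similar amounts. Its deposited signal had a lowest value of 199.6, a median of 251 and a highest value of 387 over the 7 Th1 arrays, against 1474, 1872 and 3837 over the 7 Th2 arrays. The groups did not overlap, and the lowest Th2 array lay far above the highest Th1 array. On the log2 scale the normalised level averaged 8.19 ± 0.27 in Th1 and 11.11 ± 0.29 in Th2 cells (SD, n = 7 arrays each). The difference of Th1 minus Th2 was -2.92 ± 0.12 (SE, 7 pairs, adjusted p = 2.16e-06 in limma), and single pairs ran from -3.30 to -2.67. It stood at -2.97 without the 2 pairs at 12 h, and at -2.89 in the untreated and siRNA pairs alone (adjusted p = 0.0171), whose arrays carry no 3′ bias.

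Maf (chr8:115703253-115706894) was lower in Th1 cells on 5 of its 6 probe sets. The leading one, 1456060_at, had deposited signals of 115 to 782 in Th1 arrays with a median of 178, against 2289 to 3777 in Th2 arrays with a median of 3320.5. The ranges did not overlap on any of the 5. The difference was -3.69 ± 0.30 on the leading probe set (SE, adjusted p = 8.95e-05), -4.22 ± 0.16 on 1447849_s_at and -3.59 ± 0.12 on 1435828_at, and -2.59 and -2.42 on 1444073_at and 1437473_at. The remaining probe set, 1447945_at, averaged 4.69 in Th1 and 5.14 in Th2 cells, near the floor of 4.0 that the added 16 sets, and its difference of -0.45 did not pass (adjusted p = 0.286).

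Of the 6 Maf probe sets the leading one varied most within Th1 cells. Both Th1 arrays at 4 h, with DN Trpm4 and with vector, read 782 and 652, and the other 5 Th1 arrays read 115 to 205. The pair difference was accordingly -2.44 in both pairs at 4 h, -4.61 and -4.80 in the pairs at 12 h, and -3.96 to -3.63 in the untreated and siRNA pairs. On 1435828_at the same pairs were close together, from -3.97 to -3.22 over all 7, with Th1 log2 levels of 5.12 to 6.20. On 1447849_s_at they ran from -4.68 to -3.63. The high Th1 values of 1456060_at fell on the Th1 arrays with 3′ bias, and the part of that bias was not tested.

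Of 16 tested genes reported downstream of GATA3 or c-Maf, a list written with earlier results of these data known, 0 were higher and 10 lower in Th1 cells, and 6 did not pass. Over all 13118 genes 3.83% were higher and 7.75% lower. The median difference of the list was -2.10, against -0.02 over all genes. The 6 with the largest difference were the cytokine genes Il4 at -6.59, Il5 at -5.68, Il13 at -3.59 and Il10 at -2.55, the extracellular matrix gene Ecm1 at -5.59, and Rnf128 at -4.41, which encodes the ubiquitin ligase GRAIL (adjusted p from 1.35e-06 to 0.00189). Il4 passed the filter on low signal only through its Th2 values. Its Th1 signals were 2.96 to 25.82, near or below the array median. The cytokine genes Il3 at 1.49 (adjusted p = 0.0507), Il9 at 0.81 and Il24 at -0.49 and the chemokine receptor gene Ccr4 at 0.11 were among the 6 that did not pass.

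Runx1 (chr16:92601466-92826074) was lower in Th1 cells on 4 of its 6 probe sets. The leading one, 1422864_at, had deposited signals of 46.9 to 122 with a median of 61.4 in Th1 arrays, against 201 to 468 with a median of 254 in Th2 arrays. These ranges did not overlap. The difference was -1.64 ± 0.23 (SE, adjusted p = 0.00253), and it was -2.04 on 1440878_at, -1.17 on 1427650_a_at and -1.14 on 1422865_at (adjusted p from 0.00114 to 0.0307). The other probe sets did not pass, with -0.97 on 1452531_at (adjusted p = 0.0724) and -0.58 on 1452530_a_at (adjusted p = 0.225).

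The size of the Runx1 difference depended on the pair. On the leading probe set it was -2.32 with Trpm4 siRNA, -2.30 with Thy1 siRNA and -1.57 untreated. With DN Trpm4 and with vector it was -1.85 and -2.08 at 12 h, and -0.64 and -0.74 at 4 h. In the untreated and siRNA pairs alone it was -2.07 ± 0.21 (adjusted p = 0.0406, 3 pairs). The 4 h pairs are those in which both arrays carry 3′ bias. Leaving out the untreated pair ended the call of 1422865_at (adjusted p = 0.0676) and brought that of 1452531_at past the threshold (-1.21, adjusted p = 0.0307).

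Runx3 (chr4:135120645-135177990), the partner of T-bet, gave 2 readings. The leading probe set, 1440275_at, read 87.2 to 880.1 in Th1 arrays with a median of 583 and 216.7 to 649 in Th2 arrays with a median of 359. It did not pass over 7 pairs, with a difference of 0.18 ± 0.30 (adjusted p = 0.722). Th1 exceeded Th2 in 5 of 7 pairs, by 0.52 to 0.93. Both pairs at 12 h went the other way, at -1.37 and -0.96, and these compare an unbiased Th1 with a 3′-biased Th2 array. Without them the difference was 0.72 ± 0.12 (5 pairs, adjusted p = 0.0237), where 4.26% of all probe sets passed. In the untreated and siRNA pairs alone it was 0.79 and did not pass (adjusted p = 0.125, 3 pairs). The other probe set, 1421467_at, was higher in Th1 cells in 7 of 7 pairs, by 0.54 ± 0.13 (adjusted p = 0.0312), at signals of 15.6 to 56.8 in Th1 and 12.1 to 28.4 in Th2 arrays that straddle the array median. Without the pairs at 12 h it did not pass (0.45, adjusted p = 0.131).

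The start regions of these genes are shown because Gata3 and Runx1 were both lower in Th1 cells, while Runx3, a relative of Runx1, did not pass in that direction. RefSeq promoter windows in GRCm38.p6, 250 bases before to 50 after the annotated start, were held for 7 of the 9 genes, in 10 windows; Maf and Ikzf2 were not among them. Motifs were searched on both strands and did not overlap each other. They were AACCACA for RUNX proteins, GGTGTGA for T-box proteins, GATA with A or T before it and A or G after it for GATA proteins, and the MAF half-site TGCTGA. Positions are counted from 0 at the annotated start, negative before it. In the Gata3 window (chr2:9878551-9878850, minus strand) capitals mark the half-site at position -90 from the start and a GATA word at position 36. This window lies inside the annotated span of Gata3 (chr2:9857078-9887953). No window was held at the upstream end of that span, so that region was not searched. In the distal windows of Runx1 (chr16:92826025-92826324, minus strand) and Runx3 (chr4:135120395-135120694, plus strand) capitals mark the RUNX motif alone.
Gata3: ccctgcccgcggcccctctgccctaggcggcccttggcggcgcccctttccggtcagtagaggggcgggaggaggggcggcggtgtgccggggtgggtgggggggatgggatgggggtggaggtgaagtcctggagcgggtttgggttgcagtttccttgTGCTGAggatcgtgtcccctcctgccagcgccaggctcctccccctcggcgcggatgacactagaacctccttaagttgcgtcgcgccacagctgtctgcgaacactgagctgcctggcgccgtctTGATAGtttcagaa
Runx1 distal: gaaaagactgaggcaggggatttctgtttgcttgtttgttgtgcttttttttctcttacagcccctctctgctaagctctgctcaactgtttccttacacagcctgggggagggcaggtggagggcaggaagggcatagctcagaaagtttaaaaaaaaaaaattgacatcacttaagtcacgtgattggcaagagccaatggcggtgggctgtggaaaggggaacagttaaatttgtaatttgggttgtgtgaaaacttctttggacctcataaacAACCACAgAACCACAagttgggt
Runx3 distal: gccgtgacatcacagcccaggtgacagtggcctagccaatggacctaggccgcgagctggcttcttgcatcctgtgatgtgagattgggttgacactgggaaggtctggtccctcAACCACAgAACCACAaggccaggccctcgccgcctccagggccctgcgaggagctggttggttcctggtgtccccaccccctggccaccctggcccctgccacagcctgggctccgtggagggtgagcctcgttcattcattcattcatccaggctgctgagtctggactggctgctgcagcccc

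Both distal windows hold 2 copies of AACCACA set 1 base apart, in Runx1 at positions 27 and 35 after the start and in Runx3 at positions -135 and -127. These are 2 of the 10 member windows, against 5.27% of 32851 promoters. The MAF half-site stood in 3 of 10, those of Gata3, distal Runx3 and distal Gfi1, against 19.5% of all promoters. A GATA word stood in 1 of 10, that of Gata3, against 29.8%, and GGTGTGA stood in 0 of 10, against 3.98%. A match describes letters in a window and shows no binding.

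**Figure D2:**
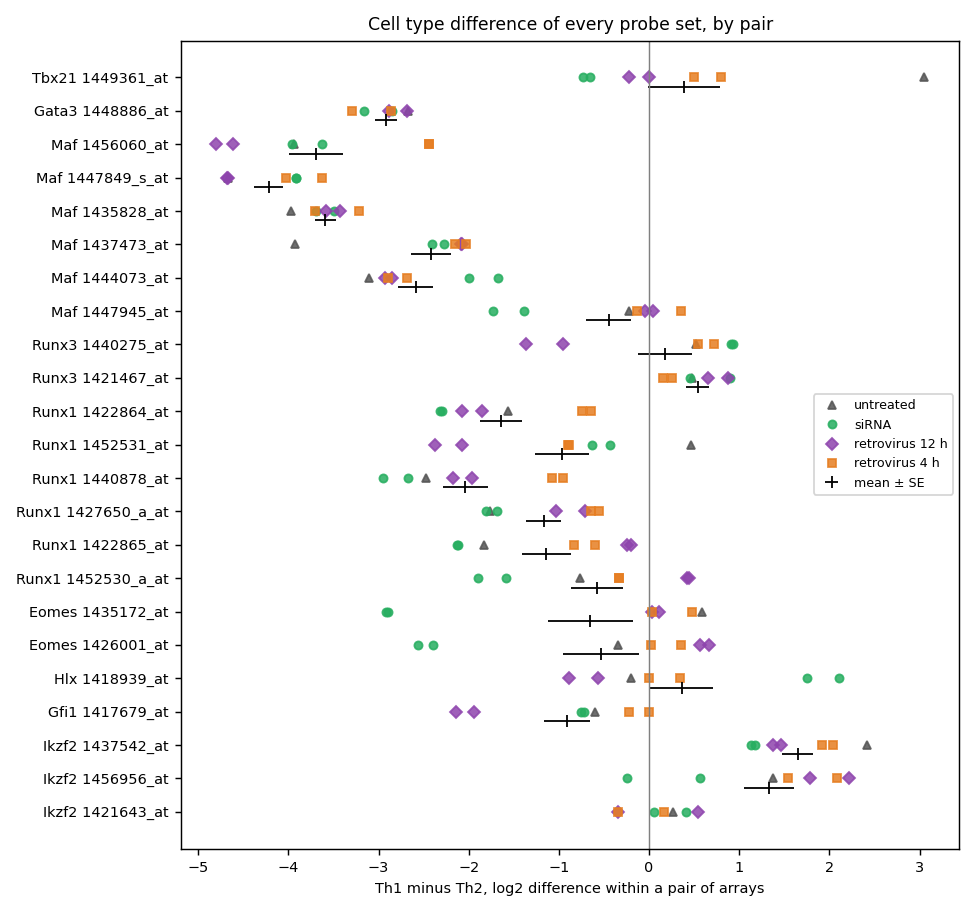
Difference of Th1 minus Th2 within each of 7 pairs of arrays, in log2 units, for all 23 probe sets, with the mean and its SE below the points where a test was run. Gata3 and 5 Maf probe sets lie below 0 in every pair. Tbx21, Eomes and Hlx scatter on both sides of 0, with the untreated pair far out for Tbx21 (3.05) and the siRNA pairs far out for Eomes (-2.90 and -2.92) and Hlx (2.11 and 1.75).

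Tbx21 (1449361_at, chr11:97098007-97115331) was far lower on 1 Th2 array than on the other 6. Its deposited signal was 615 in untreated Th1 cells against 69.1 in untreated Th2 cells. In the 6 treated pairs it was 447 to 1906 in Th1 cells and 756 to 1332 in Th2 cells. Pair differences of Th1 minus Th2 were -0.73 with Trpm4 siRNA, -0.66 with Thy1 siRNA and 3.05 untreated. With DN Trpm4 and with vector they were -0.22 and 0 at 12 h, and 0.80 and 0.50 at 4 h. The mean of 0.39 ± 0.40 did not pass (SE, adjusted p = 0.553, 95% interval -0.49 to 1.28), and without the untreated pair it was -0.05 (adjusted p = 0.906). The Tbx21 values of the 6 treated pairs therefore overlapped between the cell types, and Th2 exceeded Th1 in both siRNA pairs.

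Ifng, the cytokine gene that T-bet activates, did not follow Tbx21 in level between the cell types. On the log2 scale Ifng was 13.23 to 13.41 in treated and 10.71 in untreated Th1 cells, against 9.48 to 10.70 in treated and 5.48 in untreated Th2 cells. In Th2 cells it was low on the same array as Tbx21. Over 7 pairs it was higher in Th1 cells by 3.54 ± 0.27 (adjusted p = 7.15e-05), with each pair between 2.71 and 5.23. The 4 Th2 markers on the array summed to at least 8232 in treated and to 1227 in untreated Th2 cells, and macrophage and dendritic cell markers, 8 of 8 on the array, to 242 to 314 in treated and 641 in untreated Th2 cells. B cell markers, 5 of 6 on the array, summed to 100.1 to 139.6 in treated and 251.5 in untreated Th2 cells, and the T cell markers to at most 12430 in treated and to 22480 in untreated ones. Their part in the Tbx21 value was not tested.

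Eomes (chr9:118478186-118486132) stood out in Th2 cells given siRNA. On 1435172_at the Th1 arrays read 73.2 with Trpm4 siRNA, 62.8 with Thy1 siRNA and 22.4 to 138 over all 7. The Th2 arrays read 811 with Trpm4 siRNA, 748 with Thy1 siRNA and 22.8 to 106 on the other 5. The second probe set, 1426001_at, gave the same order, with 118 for Trpm4 siRNA and 110.3 for Thy1 siRNA in Th1 cells, against 951 for Trpm4 siRNA and 839.9 for Thy1 siRNA in Th2 cells. Th1 minus Th2 was -2.92 to -2.40 in the siRNA pairs over both probe sets, and between -0.34 and 0.66 in the other 5 pairs. Over all 7 pairs neither passed (-0.65 ± 0.47 and -0.53 ± 0.42, adjusted p = 0.397 and 0.443).

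The CD8 and NK markers were read beside Eomes, which such cells express. They summed to a normalised signal of 1708 and 2063 in Th1 siRNA arrays and 206.7 and 256 in Th2 siRNA arrays. Of the 6, Ncr1 and Gzmk did not exceed a log2 signal of 5.19 in any siRNA array. Cd8a was 7.26 and 7.38 in Th1 siRNA arrays and 6.42 and 6.74 in Th2 siRNA arrays on the log2 scale, against 4.85 to 5.40 and 4.78 to 5.19 in the retrovirus arrays. Cd8a was highest in the untreated arrays, at 8.55 in Th1 and 6.89 in Th2 cells. Cd8b1 was 6.53 and 6.68 in Th1 siRNA arrays and 5.41 in the untreated Th1 array, against 5.86 and 6.63 in Th2 siRNA arrays and 6.65 in the untreated Th2 array. The NK receptor genes Klrd1 and Klrk1 were 9.12 to 10.34 in Th1 siRNA arrays, against 5.18 to 5.54 in Th2 siRNA arrays. The untreated Th2 array, with a Cd8a level above both Th2 siRNA arrays, read 106 and 13.9 on the Eomes probe sets. Whether other cells carried part of the Eomes signal was not tested.

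**Figure D3:**
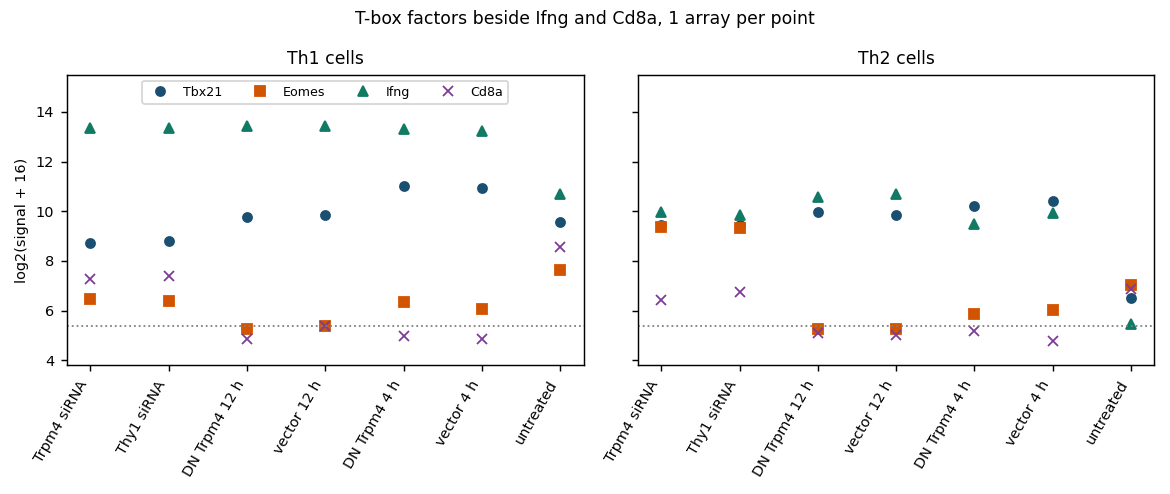
Log2 signal of the T-box genes Tbx21 and Eomes on each array beside Ifng and the CD8 T cell marker Cd8a, with Th1 arrays in the left panel, Th2 arrays in the right panel and the array median dotted. In Th2 cells Tbx21 and Ifng are lowest in the untreated array (6.51 and 5.48), while Eomes is highest in both siRNA arrays (9.37 and 9.32).

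Hlx (1418939_at, chr1:184727143-184732493) overlapped widely between the cell types. It read 19.8 to 151 in Th1 arrays with a median of 103, against 21.1 to 158 in Th2 arrays with a median of 55.9. Th1 exceeded Th2 by 2.11 with Trpm4 siRNA and by 1.75 with Thy1 siRNA, while the other 5 pairs lay between -0.89 and 0.34. The mean of 0.36 ± 0.35 did not pass (adjusted p = 0.538). The siRNA pairs thus put Hlx above in Th1 cells and Eomes above in Th2 cells.

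Gfi1 (1417679_at, chr5:107716655-107725805) had lower values in Th1 cells in 6 of 7 pairs, and in the DN Trpm4 4 h pair the difference was 0 to 2 decimals. Its deposited signal was 259 to 1247 in Th1 arrays with a median of 696, against 608 to 1383 with a median of 1137 in Th2 arrays. The mean difference of -0.91 ± 0.26 lay next to the threshold (adjusted p = 0.0571). Both pairs at 12 h lay farthest from 0, at -1.94 and -2.14, and these compare an unbiased Th1 with a 3′-biased Th2 array. Without them the mean difference was -0.46 (adjusted p = 0.144). With deposited signals not normalised further, a filter at the 75th percentile of signal or 1 probe set per gene the difference over all 7 pairs passed, at adjusted p = 0.0494, 0.0497 and 0.0481.

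Ikzf2 (chr1:69531207-69687351) was higher in Th1 cells on its leading probe set. On 1437542_at the deposited signal was 78.9 to 183 with a median of 98.3 in Th1 arrays, against 16.8 to 34.9 with a median of 30.9 in Th2 arrays. The ranges did not overlap, and the Th2 values lay around the array median. The difference on 1437542_at was 1.65 ± 0.17 (SE, adjusted p = 0.000541), from 1.13 to 2.42 over the pairs. In the untreated and siRNA pairs alone it did not pass (1.58, adjusted p = 0.116). The second probe set, 1456956_at, exceeded the array median on 5 Th1 arrays and 0 Th2 arrays, so it entered the test through Th1 cells alone and is no second measure of the difference. Its signal was 15.9 to 101 in Th1 arrays and 3.62 to 23.7 in Th2 arrays. Its difference was 1.33 ± 0.28 (adjusted p = 0.0178), with the Thy1 siRNA pair at -0.25, and without the 12 h pairs it did not pass (1.07, adjusted p = 0.113). The third probe set, 1421643_at, read 1.76 to 20.2 in Th1 and 1.98 to 11.3 in Th2 arrays and was too low to be tested.

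Of 21 tested genes reported downstream of T-bet or Runx3, a list also written with earlier results of these data known, 14 were higher and 1 was lower in Th1 cells, beside 3.83% and 7.75% of all genes. The median difference of this list was 1.83, against -0.02 over all genes. The 6 with the largest difference were Klrc1 at 5.35, which encodes a natural killer cell receptor, the cytokine genes Lta at 5.27 and Ifng at 3.54, the chemokine gene Ccl5 at 3.97, the interleukin 18 receptor gene Il18r1 at 3.0 and the perforin gene Prf1 at 2.79. The chemokine receptor gene Cxcr6 was lower, at -1.42 (adjusted p = 0.0449), while the T-bet target Cxcr3 gave 0.19 (adjusted p = 0.702). Klrc1 and Prf1 are also natural killer cell genes, and the NK marker sums were higher in Th1 arrays too. Those sums rest mainly on Klrd1 and Klrk1. In Th1 retrovirus arrays 2 or 3 of the 6 markers exceeded the array median, in Th1 siRNA arrays 4 and in the untreated Th1 array all 6. Whether such cells carried part of these differences was not tested. Of 53 other transcription factors of helper cells 6 were higher and 11 lower, beside the same shares of all genes, with a median of -0.08. Sox4 at 3.25 and Twist1 at 2.28 led those higher in Th1 cells, and Irf1 at -2.03, Nfil3 at -1.86, the Ikaros relative Ikzf3 at -1.77 and the AP-1 factor gene Batf at -1.64 led those lower. The lists overlap. Twist1 is also counted downstream of T-bet or Runx3, and Nfil3 downstream of GATA3 or c-Maf.

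Whether the cell type difference itself depended on the set of arrays was tested as an interaction, retrovirus pairs minus siRNA and untreated pairs. Of the 22 member probe sets 1 passed, Runx1 1422865_at, against 1.34% of all probe sets. Its Th1 minus Th2 difference averaged -0.47 in the 4 retrovirus pairs and -2.03 in the 3 others, which differ by 1.56 ± 0.24 (adjusted p = 0.0263). Neither Eomes probe set passed, with 2.16 (adjusted p = 0.0822) and 1.90 (adjusted p = 0.253). Without the untreated pair 9 member probe sets and 1645 in all passed. Without the Trpm4 siRNA, Thy1 siRNA, DN Trpm4 12 h, vector 12 h or DN Trpm4 4 h pair 0 member probe sets did, so the count depends on single pairs. All 4 retrovirus pairs hold Th2 arrays with 3′ bias and the other 3 pairs hold none, so treatment method and array kind cannot be told apart.

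Time of stimulation was read within Th2 cells first, where all 4 retrovirus arrays were of 1 kind. Hlx and Eomes were lower at 12 h, 2 of 22 member probe sets. That is 9.09%, no more than the 10.1% of all probe sets that passed. The Hlx signal was 55.9 with DN Trpm4 and 50.4 with vector at 12 h, against 158 with DN Trpm4 and 110.4 with vector at 4 h, a difference of -1.01 ± 0.16 (SE, 2 pairs, adjusted p = 0.008). The fit held the retrovirus arrays of both cell types, so SE and p also draw on the spread of the Th1 pairs. Eomes on 1435172_at was 22.8 and 24.3 at 12 h, against 46.8 and 55.1 at 4 h (-0.67 ± 0.15, adjusted p = 0.0276). Its other probe set gave 0.11 (adjusted p = 0.723), so the probe sets of Eomes did not move alike. Leaving out any 1 of the 4 pairs ended the Eomes call (adjusted p from 0.0502 to 0.0739), and Hlx kept it in 4 of 4 (adjusted p from 0.00875 to 0.0434). With a pseudocount of 1 in place of 16 no probe set passed in Th2 cells, and Hlx had an adjusted p of 0.0761.

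The other members gave smaller values in Th2 cells. Tbx21 was at -0.40 (adjusted p = 0.136), leading Runx3 at -0.41 and leading Runx1 at 0.43 (adjusted p = 0.0829), with both pairs on the same side of 0 in each. Gata3 gave -0.21 and leading Maf 0.04. Of the genes downstream of T-bet or Runx3, 6 of 21 were higher and 2 lower at 12 h in Th2 cells. Downstream of GATA3 or c-Maf 2 of 16 were higher and 4 lower, and of the other factors 1 of 53 was higher and 10 lower. Over all 13118 genes 12.4% passed, 5.48% higher and 6.88% lower. The medians were 0.43, -0.10 and -0.21 for the 3 lists, against 0.02 over all genes. Over both cell types Hlx was the 1 member that passed (-1.45 ± 0.23, adjusted p = 0.0473), against 2.01% of all probe sets, and that call ended when any pair was left out.

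Within Th1 cells 16 of 22 member probe sets passed, 4 higher and 12 lower at 12 h, against 56.1% of all probe sets, and each of these pairs sets an unbiased 12 h array against a 3′-biased 4 h array. Probe sets of the same gene disagreed. Runx1 1422865_at was at 0.93 and 1452531_at at -1.16, Eomes 1426001_at at 0.55 and 1435172_at at -0.86, and Runx3 1421467_at at 0.66 and 1440275_at at -2.20. Maf 1456060_at was at -2.23 and 1435828_at at -0.26, the latter at log2 levels of 5.12 to 5.49, around the array median. Maf 1447849_s_at was lower at 12 h too, by -1.04 in the vector and -1.19 in the DN Trpm4 pair. Hlx was at -1.90, Gfi1 at -1.94 and Tbx21 at -1.16. Gata3 did not pass, at 0.09. The difference of the time effect between Th1 and Th2 cells passed for 10 of 22, against 38.2% of all probe sets. In this comparison time and array kind cannot be told apart.

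**Figure D4:**
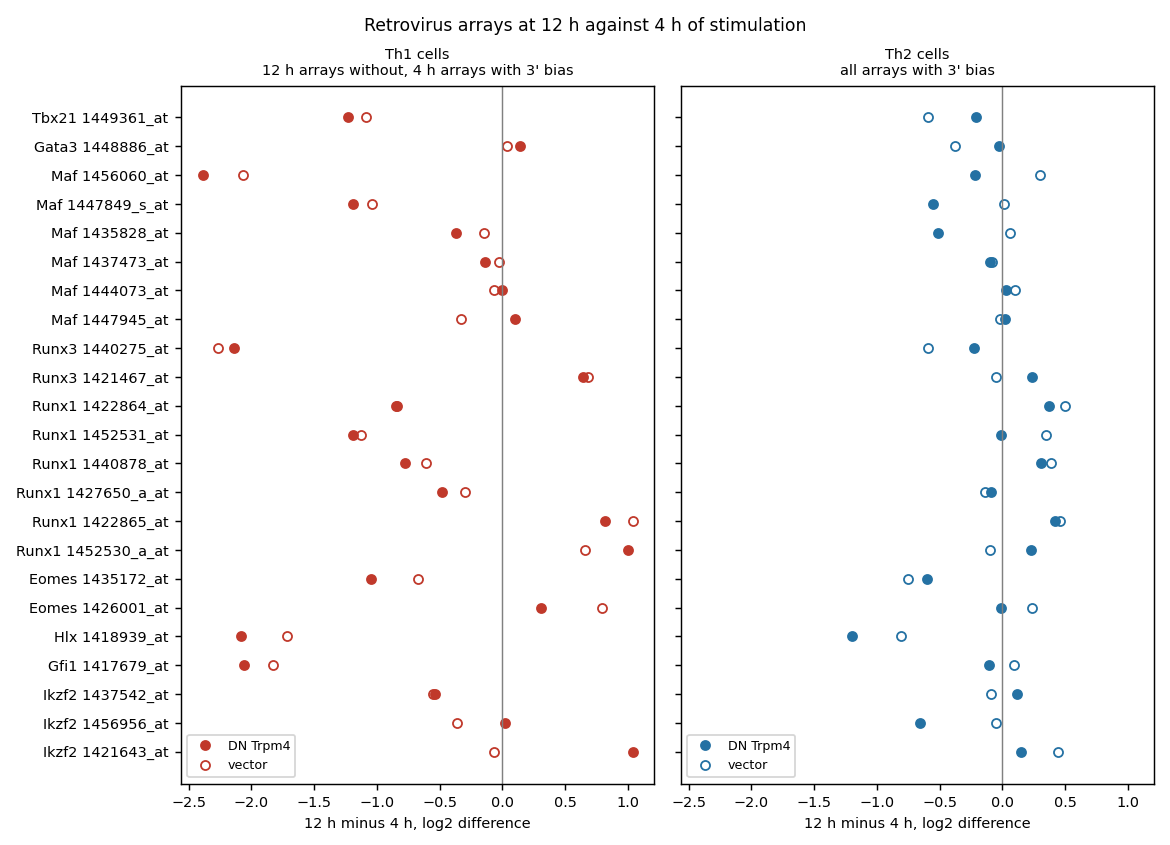
Difference of 12 h minus 4 h of stimulation in log2 units for each probe set, with DN Trpm4 pairs filled and vector pairs open, Th1 cells in the left panel and Th2 cells in the right panel. In Th2 cells, where all arrays carry 3′ bias, Hlx (-1.20 and -0.81) lies farthest from 0; in Th1 cells, where the 2 times differ in bias, points spread from -2.39 to 1.04.

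No lineage factor passed the test where Trpm4 was to be inhibited, the question of the series. Over 6 pairs, Trpm4 siRNA minus Thy1 siRNA and DN Trpm4 minus vector in each cell type, 0 of 22 member probe sets passed in limma, and 0% of all 29467 did. At an unadjusted p under 0.05 there were 2 member probe sets and 1733 in all. The member values ran from -0.20 for Runx1 1452531_at to 0.16 for Maf 1444073_at, and limma's adjusted p was 0.825 for both. On the Trpm4 probe set DN Trpm4 minus vector at 12 h and at 4 h was 2.59 and 0.60 in Th1 cells, and -0.21 and 0.09 in Th2 cells, so the construct was not seen in the Th2 arrays that are pooled here as inhibited. Whether the channel was inhibited in them was not tested. The Th1 pair at 12 h is also the only retrovirus pair on arrays without 3′ bias. The part of that bias in the Trpm4 values was not tested.

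Gata3 averaged 9.62 with Trpm4 inhibited and 9.65 in controls, a difference of -0.03 ± 0.09 (95% interval -0.22 to 0.16). Tbx21 was at -0.02 (-0.17 to 0.14), leading Maf at -0.01 (-0.21 to 0.19), leading Runx3 at -0.03 (-0.20 to 0.15), and leading Runx1 at -0.07 (-0.21 to 0.08). Ikzf2 was at 0.02 (-0.13 to 0.17), Eomes at 0.02 (-0.15 to 0.19), Gfi1 at 0.05 (-0.11 to 0.20) and Hlx at 0.09 (-0.12 to 0.29). These intervals bound the mean over both cell types, both methods and both times, and a change in 1 condition would be diluted in it.

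Within Th1 cells, within Th2 cells and for the difference between them 0 of 22 member probe sets and 0% of all passed in limma, with 928, 1824 and 1032 of all at an unadjusted p under 0.05. In Th1 cells member values ran from -0.23 to 0.19 and in Th2 cells from -0.22 to 0.21, and the difference of the effects from -0.30 to 0.24. Single pairs spread wider, and the median size of a member difference was 0.07 to 0.19 per pair, against 0.10 to 0.18 over all probe sets. The farthest values were 0.57 for Maf 1447849_s_at and -0.66 for Ikzf2 1456956_at, in the Th2 retrovirus 4 h and Th2 siRNA pairs. Runx1 1422865_at, Maf 1444073_at and Maf 1447849_s_at were above 0 in 6 of 6 pairs, and leading Runx1 was below 0 in 6 of 6. Their pair values nearest to 0 were 0.03, 0.03, 0.01 and -0.01, and these Runx1 probe sets lay on opposite sides of 0. How many of all probe sets kept to the same side in every pair was not counted. None of the genes downstream of T-bet or Runx3 (0 of 21), downstream of GATA3 or c-Maf (0 of 16) or among the other factors (0 of 53) passed.

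**Figure D5:**
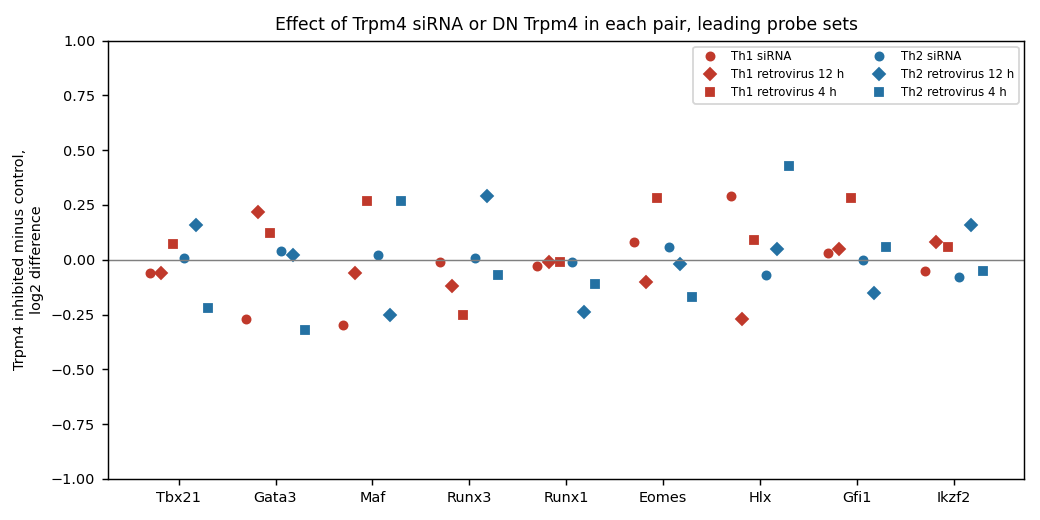
Difference with Trpm4 inhibited minus control in log2 units, for the leading probe set of each gene in each of 6 pairs, Th1 pairs left of Th2 pairs. The points lie on both sides of 0 for each gene except Runx1, and the farthest is Hlx in the Th2 retrovirus 4 h pair (0.43).

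The genes whose profile over the 14 arrays was nearest to each factor were taken by the root mean square difference of centred log2 values, as a description. Nearest to Gata3 were Ptgir (0.38) and Adamtsl3 (0.39), to Maf Ptpn13 (0.36) and Prxl2a (0.41), and to Runx1 Abcb9 (0.26) and Gzf1 (0.29). Nearest to Ikzf2 were Yap1 (0.17) and Sestd1 (0.30), and to Gfi1 Prmt2 (0.19) and Retreg3 (0.23). For Runx3 they were Sesn3 and Nxpe3 (0.35 each), for Hlx Hpse (0.31) and Cytip (0.36), and for Tbx21 Pdcd1 (0.51) and Rfk (0.55). Eomes had none closer than Sfrp1 (0.61) and Klf4 (0.62). Arrays of 1 kind share a 3′ bias, which enters these profiles as well.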

How the data were processed

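Mouse Affymetrix arrays measured total RNA that was extracted with Trizol and labelled with biotin, per the labels' protocols. The authors deposited 1 signal per probe set and array, an intensity on a linear scale that is never negative; the sources used here do not give how probes were summarised or arrays scaled. Probe sets were named through GEO's platform annotation (34958 with 1 gene, 932 with several, 9211 with none), and gene positions came from RefSeq GRCm38.p6.

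Quantile normalisation across the 14 arrays was applied to the deposited intensities, then log2(value + 16), so the floor is 4.0 and differences of low probe sets are understated. Probe sets above the array median on at least 2 arrays were tested, and the 64 control probe sets were left out. A probe set could therefore pass this filter through the cell type in which it is high. Each comparison was fitted over all 29467 by limma (version 3.58.1, R version 4.3.3; lmFit, eBayes), the matched pair being a fixed block, two-sided and adjusted by Benjamini-Hochberg. The fits were tested on simulated data. The number of arrays limits the precision.

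Named were all members, up to 6 genes per list with the largest difference of Th1 minus Th2 among those that passed, and the 2 genes nearest in profile to each member. Other genes of a list were added after their values were seen. The members and gene lists were chosen with earlier results of these data known. Alternatives changed the normalisation, pseudocount, filter, variance model, probe set, pair block and the pairs used.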

Additional observations from a re-analysis of the deposited data

Results flagged for a closer look

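The untreated Th2 array lay far from the other 6 Th2 arrays for 4 of the 9 leading probe sets, on the log2 scale. Tbx21 was at 6.51 there, against 9.45 to 10.43 on the others. Runx3 was at 9.55 (others 7.90 to 8.49), Gfi1 at 9.46 (others 10.09 to 10.41) and Ikzf2 at 5.14 (others 5.44 to 5.60). A gap test of each gene in each cell type, 18 tests, picked out these 4, all on this array. Its threshold, about 1 in 20 groups by chance, holds for independent values. The other 6 Th2 arrays share treatment methods with each other, so the 4 cannot be set against that rate. This array is also the only Th2 array with no treatment, so array and treatment cannot be told apart.

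The time effect, 12 h minus 4 h, differed between Th1 and Th2 cells for 10 of 22 member probe sets by an interaction term in limma. That is 45.5% of them, beside 38.2% of all probe sets. Values are given as the Th1 effect minus the Th2 effect. The differences were -0.76 for Tbx21, -2.27 and -0.85 for Maf 1456060_at and 1447849_s_at, and -1.80 for Runx3 1440275_at. For Runx1 they were -1.28 on 1422864_at, -1.33 on 1452531_at, -1.04 on 1440878_at and 0.76 on 1452530_a_at. Hlx gave -0.90 and Gfi1 -1.93. The Th1 arrays of the 2 times differ in 3′ bias and the Th2 arrays do not. The Th1 minus Th2 difference of Runx1 1422865_at differed between retrovirus pairs and the others by 1.56, in a test that 1.34% of all probe sets passed.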

How the results depend on the processing

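Of 725 recomputed values 632 stayed on their side of the threshold or near their value, 27 lost and 5 gained a call, 60 counts moved and 1 reversed, Tbx21 in Th1 minus Th2, at -0.05 without the untreated pair and up to 0.58 without another. The cause was not tested where no cause is named.

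For Th1 minus Th2 the 2884 calls became 1732 on 1 probe set per gene, 837 with no pair block, 1256 without both 12 h pairs, and 319 with 8 member probe sets in the untreated and siRNA pairs alone; leaving out 1 pair gave 1450 to 2901. Gata3 ran from -2.98 to -2.73 and stayed called throughout.

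For 12 h minus 4 h over both cell types the 592 calls became 385 with common median scaling, 351 with a variance trend, 964 on 1 probe set per gene and 0 with a pseudocount of 1 or without any 1 pair. The 1 member call became 0 with that pseudocount, no filter, a trend, robust eBayes or any pair left out. In Th1 the count was 7518 on 1 probe set per gene and 9919 to 18942 without 1 pair, with 10 to 16 members. In Th2 it was 1905 on 1 probe set per gene, 0 (members 0) with a pseudocount of 1 and 1846 to 4042 without 1 pair, with 1 member. A 75th percentile filter gave 4 of the 18 member probe sets that it kept, and the share of all probe sets under it is not given here. The difference between cell types gave 5078 on 1 probe set per gene and 5845 to 12630 without 1 pair, with 5 to 10 members.

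The interaction with the set of arrays gave 169 calls (members 0) with a pseudocount of 1, 232 on 1 probe set per gene and 0 to 1645 without 1 pair, with 0 to 9 members. Trpm4 counts were 0 under every setting run. Signals near background limit Ikzf2 1421643_at and 1456956_at, Maf 1447945_at and Runx3 1421467_at.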
